A study of Homo sapiens with 72 samples.

Results

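The genes described here are 42 mitotic genes, members of the programme that human cells switch on in G2 and mitosis. They were chosen by name: a row was taken where its gene symbol, carried between tables by its Ensembl ID, was one of the 42. Every one of the 42 was present in each of the authors' 11 deposited tables, among 61541 genes. All 42 carried an adjusted p in 9 tables, 41 did in the arsenite comparison of cells given wild-type G3BP1, and 40 in that of cells given the mutant.

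G3BP1 is an RNA-binding protein that nucleates stress granules, the cytoplasmic bodies in which untranslated mRNA collects during stress. It pairs with itself and with partner proteins through its NTF2-like domain, and G3BP2 is its close paralog. The series asked which RNAs G3BP1 engages, and 24 of its 72 libraries are used here; the other 48 are not analysed here. RNA immunoprecipitation (RIP-seq) was made from Flp-In T-REx 293 cells, a derivative of the embryonic kidney line HEK293, in which a stably integrated FLAG-G3BP1 was induced with tetracycline at 1 µg/mL for 24 h, with 3 immunoprecipitates (IP) and 3 inputs.

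The RNA-seq used U2OS, an osteosarcoma line. A first experiment had wild-type cells, G3BP1/2 knockout cells and knockout cells transfected with a G3BP1 transgene for 24 h, with 2 libraries in each group. A second experiment had G3BP1/2 knockout cells, knockout cells given a wild-type G3BP1 transgene (WT rescue) and knockout cells given G3BP1 lacking the NTF2 domain (NTF2-deletion rescue), each with and without 200 µM sodium arsenite for 2 h, again with 2 libraries per group. Both transgenes entered by Lipofectamine, whereas the knockout cells were not transfected, so transfection and transgene cannot be told apart. Whether the replicates came from separate cultures is not stated, so the p-values measure only the spread between these libraries. How many clones the knockout line came from is not stated either.

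Entry into mitosis is driven by cyclin-dependent kinase 1 bound to B-type cyclins, which the CDC25 phosphatases switch on and which the Polo-like and Aurora kinases assist. Once each chromosome is held by spindle microtubules, the spindle checkpoint releases the anaphase-promoting complex, which marks cyclin B and securin for destruction. Most of these genes are transcribed together late in the cell cycle through promoter elements read by the MuvB complex with B-MYB and FOXM1, and by NF-Y at CCAAT boxes, and growth-arrested cells hold them down.

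A library of the first experiment held 33.9 to 46.0 M (M, 1e6) recovered gene reads and one of the second 10.8 to 26.4 M. Knockout cells still gave reads over G3BP1 and G3BP2, and which part of each gene was deleted is not given in the sources used here. In the authors' deposited tables its log2 fold change in the knockout against wild type was -0.56 (adjusted p = 1.01e-29, SE 0.05). It was at -0.69 against the first experiment's rescue, and above the knockout level by 7.31 in the WT rescue and 7.75 in the NTF2-deletion rescue of the second, per the authors' deposited tables. G3BP2 was at -0.36 in the knockout against wild type, and at 0.55 and 0.57 in the WT and NTF2-deletion rescues against the knockout, per the authors' deposited tables. U2OS identity markers were present, with VIM at a base mean of 72390, COL1A1 at 87411 and RUNX2 at 924 normalised reads in the authors' deposited table of knockout against wild type. The blood marker PTPRC was at 21.3 there and the liver marker ALB at 1.48. Of 2 epithelial markers CDH1 was at 27.9, but EPCAM was at 453 and thus not low, per the authors' deposited table. Of 10 tested identity markers, 7 were lower in the knockout than in wild type and 0 higher, with FN1 at -2.75, per the authors' deposited table. Those lower included PTPRC and the kidney marker PAX2, which are not markers of U2OS. Their part in the results on the mitotic genes was not tested. In the 293 cells PAX2 had a base mean of 45.8, and in the U2OS comparison of knockout and wild type 146, per the authors' deposited tables. Base means summed to 12.17 M in the RIP-seq and 44.22 M in that U2OS comparison, so these values are not on one scale. The RIP-seq base mean also averages IP and input.

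**Figure D1:**
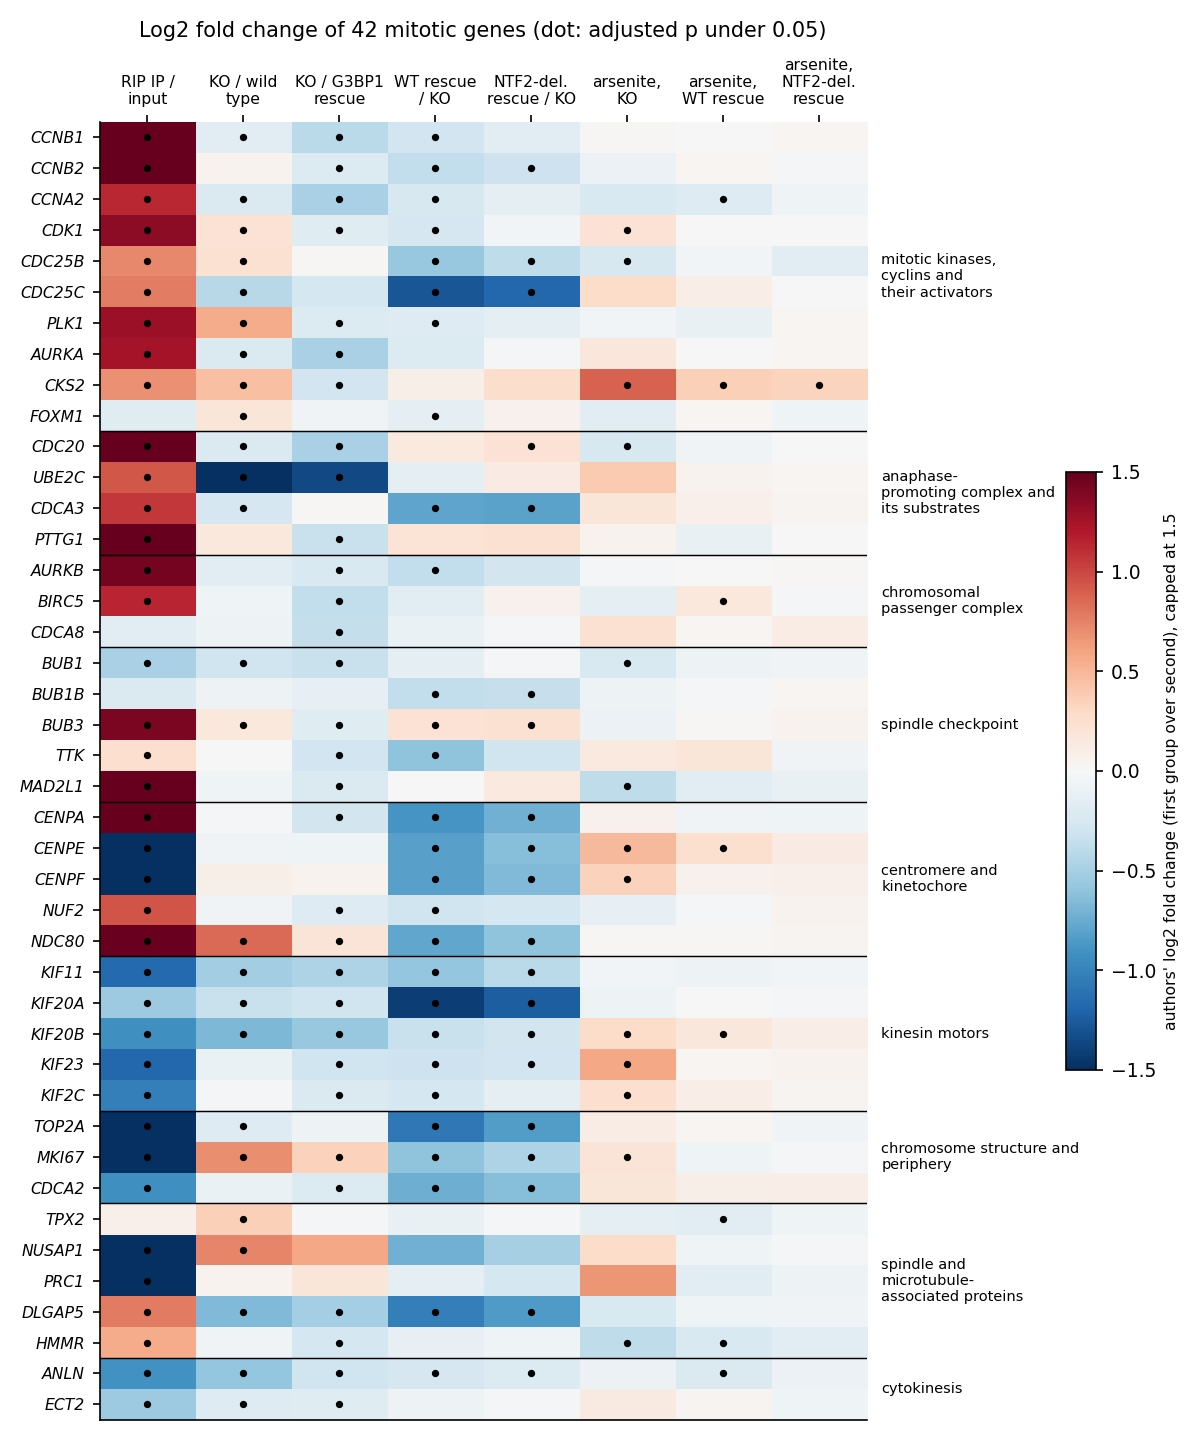
Authors' log2 fold changes of the 42 mitotic genes (rows, grouped by role) in 8 comparisons (columns), red for higher and blue for lower in the first-named group, with the colour capped at 1.5. A dot marks an adjusted p under 0.05. The columns of both second-experiment rescues are mostly blue. The RIP column is red for 9 of 10 genes grouped as kinases, cyclins and their activators (all but FOXM1) and blue for 5 of 5 kinesins.

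Giving knockout cells the wild-type G3BP1 transgene in the second experiment went with lower mRNA of the mitotic genes. Its G3BP1 level was not that of wild-type cells. The log2 fold change of G3BP1 over the knockout was 7.31, while the first experiment's knockout was at -0.56 against wild type, per the authors' deposited tables. In the WT rescue 27 of the 42 fell against the knockout and 1 rose, where 19.1% of all tested genes fell and 23% rose, per the authors' deposited table. The members' median log2 fold change was -0.30 against -0.03 for all tested genes, and -0.47 relative to the median of genes whose base mean was 100 or more, which sat at 0.18. Both WT rescue libraries lay below both knockout libraries for 35 of the 42 genes, as they did for 39.7% of all genes. The members summed to 7699 and 7705 RPM (reads per 1e6 gene reads) in the knockout libraries and to 5048 and 5050 in the WT rescue. Cell line markers moved in the same comparison, with 1 of 10 tested higher (VIM at 0.36) and 4 lower (COL1A1 at -1.56, RUNX2 at -1.24, FN1 at -1.02 and CDH2 at -0.47), per the authors' deposited table. Their part was not tested here either. In bulk RNA, fewer cells in G2 or mitosis and less of each mRNA per cell cannot be told apart.

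**Figure D2:**
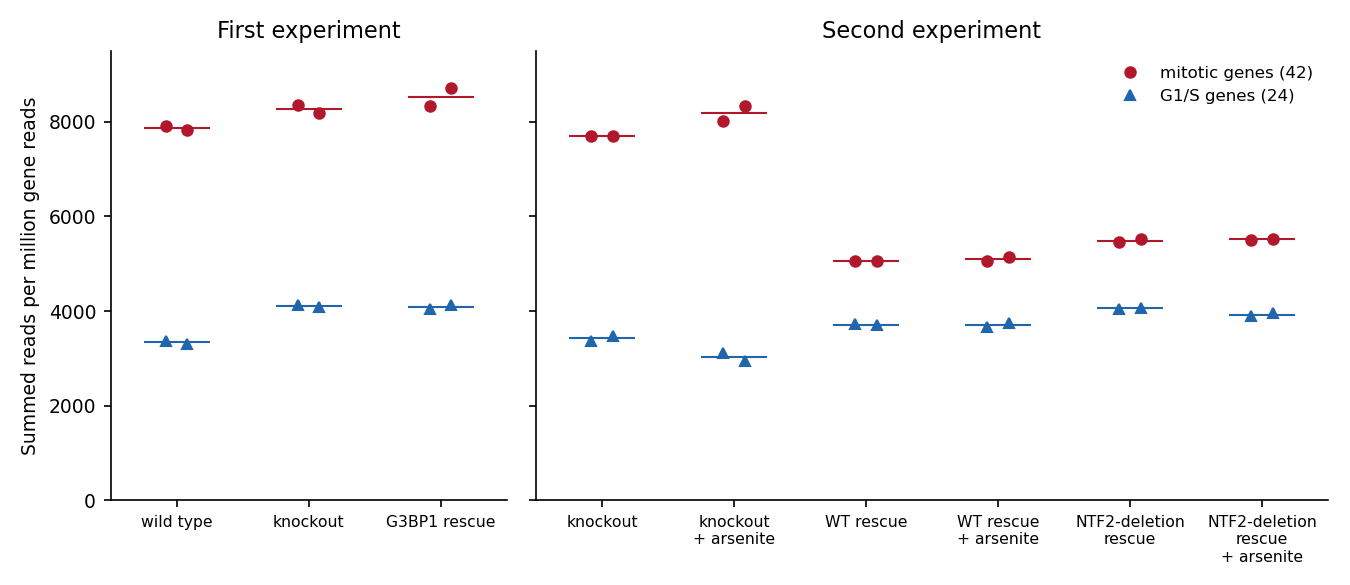
Summed RPM (reads per 1e6 gene reads) of the 42 mitotic genes (circles) and of 24 G1/S genes (triangles) in each library, with a bar at the mean of each group of 2. In the second experiment all 8 rescue libraries sit between 5048 and 5527 for the mitotic genes, below all 4 knockout libraries, while their G1/S sums lie above those of the untreated knockout.

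The steepest fall was that of KIF20A, a kinesin that carries the Aurora B complex to the central spindle. Its normalised reads were 1598 and 1571 in the knockout, 593 and 571 in the WT rescue, and 697 and 616 in the NTF2-deletion rescue. The groups did not overlap, and the WT rescue held the lowest values. The authors' deposited table gave a log2 fold change of -1.41 (adjusted p = 2.12e-40, SE 0.10) for the WT rescue.

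CDC25C, a phosphatase that activates cyclin-dependent kinase 1, had 296 and 292 normalised reads in the knockout, 121 and 110 in the WT rescue and 129 and 120 in the NTF2-deletion rescue. Every rescue library was below every knockout library, and the log2 fold change of the WT rescue in the authors' deposited table was -1.29 (adjusted p = 5.04e-08, SE 0.22). TOP2A, the topoisomerase that untangles sister chromatids, had 5640 and 5618 normalised reads in the knockout against 2705 and 2572 in the WT rescue. It fell by 1.07 on the log2 scale (adjusted p = 4.42e-68, SE 0.06) in the authors' deposited table. DLGAP5, a spindle microtubule-stabilising protein, went from 1714 and 1686 normalised reads to 855 and 790, and by -1.02 (adjusted p = 2.93e-24, SE 0.10) in the authors' deposited table.

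By role, the fall was complete among the kinetochore genes, kinesins and chromosome proteins. All 5 kinetochore genes fell, with a median log2 fold change of -0.81, per the authors' deposited table. CENPF, a large outer kinetochore protein, had 11341 and 10871 normalised reads in the knockout against 6350 and 6117 in the WT rescue. CENPA, the histone variant that marks centromeres, had 596 and 602 against 305 and 328. For both genes the knockout and rescue libraries were far apart, with log2 fold changes of -0.81 and -0.88 in the authors' deposited table. NDC80, which binds microtubules at the kinetochore, fell by 0.78 on the log2 scale and the kinetochore motor CENPE by 0.81, per the authors' deposited table. All 5 kinesins fell (median -0.34), from KIF20A at one end to the microtubule-depolymerising KIF2C at -0.26, per the authors' deposited table. The chromosome proteins TOP2A, MKI67 and CDCA2 fell by 1.07, 0.60 and 0.73 on the log2 scale in the authors' deposited table. MKI67, the proliferation antigen Ki-67 that coats mitotic chromosomes, had 18902 and 19698 normalised reads in the knockout and 12424 and 12586 in the WT rescue.

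Of the 10 kinases, cyclins and their activators, with FOXM1 and CKS2 counted among them, 8 fell. Their median log2 fold change was -0.24, per the authors' deposited table. They ran from CDC25C (-1.29) and a second activating phosphatase, CDC25B (-0.57), to small changes among the cyclins and kinases, per the authors' deposited table. CCNB1, which encodes cyclin B1, had 2666 and 2890 normalised reads in the knockout against 2317 and 2159 in the WT rescue; its log2 fold change was -0.29 (adjusted p = 0.000552, SE 0.08) in the authors' deposited table. CDK1, the mitotic kinase itself, had 1935 and 1862 against 1567 and 1587, a log2 fold change of -0.25 (adjusted p = 0.00844) in the authors' deposited table. For both, the lowest knockout library was above the highest rescue library. In the authors' deposited table PLK1, the Polo-like kinase, was at -0.19 (adjusted p = 0.0435) and the transcription factor FOXM1 at -0.13 (adjusted p = 0.0366). Neither of those calls held at an adjusted p under 0.01. AURKA (-0.21) and CKS2 (0.09), a small protein that binds cyclin-dependent kinases, did not pass the test in the authors' deposited table.

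Of 4 genes that act with the anaphase-promoting complex or are its substrates, 1 fell. This was CDCA3, a substrate and trigger of mitotic entry (-0.79), while CDC20, the activator of the complex, was at 0.15, its substrate securin (PTTG1) at 0.21 and UBE2C, its ubiquitin-conjugating enzyme, at -0.14, all 3 short of the threshold in the authors' deposited table. The single gene that rose was BUB3, a checkpoint protein that binds kinetochores. It had 2250 and 2237 normalised reads in the knockout against 2555 and 2604 in the WT rescue, a log2 fold change of 0.22 (adjusted p = 0.0062, SE 0.07) in the authors' deposited table. Relative to the median of genes whose base mean was 100 or more, BUB3 was at 0.05 and no longer called. Among the other checkpoint genes TTK (-0.60) and BUB1B (-0.37) fell, and MAD2L1 was at 0.01, per the authors' deposited table. NUSAP1 and PRC1, both spindle proteins, had 18.5 to 60.9 and 28.1 to 90.2 normalised reads per library in the second experiment, too few for a call in either rescue.

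Promoters are shown for the members that fell most and for members that fell less or did not pass the test. The sequences are RefSeq's (GRCh38.p14), and 34 of the 42 genes were matched, with 44 start sites between them. Each window of 300 bases, from 250 before to 50 after a start site, was searched on both strands for TTTGAA, the core of the cell cycle genes homology region, and for CCAAT. The first motif, TTTGAA, was in 28 of the 44 windows (63.6%), against 15.2% of 35116 windows of all genes. CCAAT was in 33 (75%) against 34.6%, and both were in 23 (52.3%) against 5.9%. Below are the 150 bases before the start for the 4 genes that fell most, then for CDC20, which did not pass the test, for PLK1 and CCNB1, and for CKS2; capitals mark the matches, which read as the reverse complement where the motif is on the other strand.
KIF20A, chr5:138178962-138179111, plus strand: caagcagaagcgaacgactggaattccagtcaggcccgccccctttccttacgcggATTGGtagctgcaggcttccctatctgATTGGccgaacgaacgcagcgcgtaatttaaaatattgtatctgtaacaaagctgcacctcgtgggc
TOP2A, chr17:40417897-40418046, minus strand: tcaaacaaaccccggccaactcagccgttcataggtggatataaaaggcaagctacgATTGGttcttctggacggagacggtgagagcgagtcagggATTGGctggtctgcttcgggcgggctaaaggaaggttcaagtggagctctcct
CDC25C (1 of 4 start sites), chr5:138331805-138331954, minus strand: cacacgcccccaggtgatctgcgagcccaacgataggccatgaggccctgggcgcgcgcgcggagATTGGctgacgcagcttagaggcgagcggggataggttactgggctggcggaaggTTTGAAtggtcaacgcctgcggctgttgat
DLGAP5, chr14:55191586-55191735, minus strand: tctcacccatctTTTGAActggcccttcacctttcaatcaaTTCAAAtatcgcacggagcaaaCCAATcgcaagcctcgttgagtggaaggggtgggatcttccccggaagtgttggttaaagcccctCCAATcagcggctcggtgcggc
CDC20, chr1:43358831-43358980, plus strand: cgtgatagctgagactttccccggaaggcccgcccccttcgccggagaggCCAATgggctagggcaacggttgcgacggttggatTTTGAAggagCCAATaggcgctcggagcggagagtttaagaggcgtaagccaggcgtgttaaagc
PLK1, chr16:23678739-23678888, plus strand: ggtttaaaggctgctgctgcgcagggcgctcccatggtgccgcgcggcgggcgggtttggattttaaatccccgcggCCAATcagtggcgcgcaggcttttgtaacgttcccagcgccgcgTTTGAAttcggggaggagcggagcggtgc
CCNB1, chr5:69167000-69167149, plus strand: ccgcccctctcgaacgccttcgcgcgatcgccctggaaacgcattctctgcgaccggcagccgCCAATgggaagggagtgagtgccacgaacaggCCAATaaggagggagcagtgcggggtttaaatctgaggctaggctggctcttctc
CKS2, chr9:89311045-89311194, plus strand: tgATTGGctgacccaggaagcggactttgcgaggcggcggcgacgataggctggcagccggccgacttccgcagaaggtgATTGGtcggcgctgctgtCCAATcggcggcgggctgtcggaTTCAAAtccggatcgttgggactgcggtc

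CDC20 and CKS2, which did not fall in the WT rescue, carry both motifs in the bases shown, as DLGAP5, PLK1 and the CDC25C start site shown do. The other CDC25C start sites have no TTTGAA in the like stretch, and only the nearest of them has CCAAT there. KIF20A, TOP2A and CCNB1 carry only CCAAT matches there. The TTTGAA matches of TOP2A, at -194 and -151 from the start, begin before the bases shown. Of the 25 matched genes with TTTGAA in a window, 17 fell in the WT rescue and 0 rose (median -0.34), and of the 9 without it 7 fell and 0 rose (median -0.29), per the authors' deposited table. A match is a description of the letters and not evidence of binding.

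The mutant lacking the NTF2 domain also went with lower mRNA of these genes. Of the 42 genes 18 fell and 2 rose against the same knockout libraries, where 18.7% of all tested genes fell and 22.8% rose, and the median was -0.27, or -0.43 relative to the median of genes whose base mean was 100 or more, per the authors' deposited table. Both rescues were compared with those knockout libraries, so their values are not independent. KIF20A was at -1.24 (SE 0.11), CDC25C at -1.18 (SE 0.22) and DLGAP5 at -0.85 (SE 0.10) in the authors' deposited table. BUB3 (0.23) and CDC20 (0.22) rose, per the authors' deposited table. CCNB1 (-0.17), PLK1 (-0.14), CDK1 (-0.04) and FOXM1 (0.06) did not pass the test there, while TOP2A (-0.84) and MKI67 (-0.47) fell, per the authors' deposited table. Relative to the median of genes whose base mean was 100 or more, CCNB1, PLK1 and CDK1 were called lower as well.

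When the rescues were compared with each other, 0 of the 42 genes differed in the difference test, which called 0.0185% of all genes lower and 0% higher. An unadjusted p under 0.05 was found for 5 of the 42. The first-minus-second difference (WT rescue minus NTF2-deletion rescue) was negative for 40 of the 42, with a median of -0.11 against -0.01 for all genes. A limma fit on the recovered reads, which compares the rescue libraries directly, called 3 lower in the WT rescue, with no share of all genes given. These were TOP2A (-0.23, adjusted p = 0.0155), BIRC5, which encodes survivin (-0.24, adjusted p = 0.0363), and FOXM1 (-0.19, adjusted p = 0.0432). TOP2A had 2705 and 2572 normalised reads in the WT rescue and 3010 and 3173 in the NTF2-deletion rescue, without overlap. Leaving out any 1 of the 4 rescue libraries left 0 or 1 limma calls.

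In the first experiment the same genes moved otherwise. The knockout had 10 of the 42 higher and 15 lower than wild type, with 18.4% of all tested genes higher and 19.4% lower, and a median of -0.07, per the authors' deposited table. Sums of the 42 were 7906 and 7820 RPM in wild type and 8351 and 8188 in the knockout. In normalised reads the sums were 326497 and 312977 in wild type and 338167 and 323411 in the knockout. MKI67 alone went from a mean of 37802 to 61688, a larger gain than that of the sum, so the higher sum does not describe the 42 as a set. The lowest gene was UBE2C, with 3665 and 3770 normalised reads in wild type, 1240 and 1326 in the knockout and 3129 and 3458 in the rescue. Its knockout libraries stood apart from all 4 others, with a log2 fold change against wild type of -1.53 (adjusted p = 1.67e-84, SE 0.08) in the authors' deposited table. UBE2C has 5 named pseudogenes, so reads shared with copies make its value uncertain.

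Next came the kinesin KIF20B and DLGAP5, both at -0.67 (SE 0.06 and 0.05) in the authors' deposited table. KIF20B had 6713 and 6672 normalised reads in wild type, 4329 and 4058 in the knockout and 6099 and 6259 in the rescue, so the knockout again was the low group. At the other end NDC80 had 2908 and 2820 in wild type, 5193 and 5177 in the knockout and 4330 and 4678 in the rescue. NDC80 rose in the knockout by a log2 fold change of 0.85 (adjusted p = 2.18e-39, SE 0.06), MKI67 by 0.70 (SE 0.06) and PLK1 by 0.56 (SE 0.06), per the authors' deposited table. PLK1 had 4666 and 4433 normalised reads in wild type, 6900 and 6569 in the knockout and 7375 and 8006 in the rescue, so it was lowest in wild type. CDK1 (0.22) and FOXM1 (0.18) were higher and TOP2A (-0.19) and CCNB1 (-0.16) lower in the knockout, per the authors' deposited table. The 3 tested genes of the chromosomal passenger complex, AURKB, BIRC5 and CDCA8, gave no call in the authors' deposited table. The kinases, cyclins and their activators, grouped as before, split into 5 higher and 4 lower there.

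Genes adjacent to a member in RefSeq's order often had a like change in the knockout. For the 10 neighbours of PLK1 the median log2 fold change was 0.54, beside 0.56 for PLK1, and for those of KIF11 it was -0.55, beside -0.52, per the authors' deposited table. UBE2C (-1.53) was further from 0 than the median of its neighbours (-0.56), as was MKI67 (0.70 against 0.28), per the authors' deposited table. Over the 42 genes the value and its neighbours' median had Pearson's r of 0.71 and Spearman's rho of 0.64, a description over genes that are not independent. The same values for the WT rescue of the second experiment were -0.02 and -0.07. Values over all genes were not computed, so whether members differ in this from other genes was not tested.

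Against the first experiment's own rescue, 29 of the 42 genes were lower in the knockout and 2 higher, where 21.5% of all tested genes were lower and 16.1% higher, and the median was -0.22, per the authors' deposited table. Both knockout libraries lay below both rescue libraries for 32 genes, as for 38.4% of all genes. The lowest were UBE2C at -1.35 (SE 0.08), KIF20B at -0.57 (SE 0.06) and DLGAP5 at -0.51 (SE 0.06) in the authors' deposited table. CDC20 had 9064 and 9059 normalised reads in the knockout and 12155 and 13125 in the rescue, and CCNB1 had 9982 and 9798 against 12626 and 13418. Both were without overlap, at -0.49 and -0.41 in the authors' deposited table. PLK1 (-0.20) and CDK1 (-0.19) were lower too, TOP2A (-0.07) and FOXM1 (-0.05) were not called, and MKI67 (0.35) and NDC80 (0.19) were higher in the knockout, per the authors' deposited table. All 5 kinesins and all 3 passenger complex genes were lower in the knockout in the authors' deposited table.

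Wild type against rescue gave 24 lower and 4 higher in wild type, with backgrounds of 20.4% and 15.2% and a median of -0.20, per the authors' deposited table. Wild type was below the rescue for CCNB1 (-0.26), CDK1 (-0.41), MKI67 (-0.36) and FOXM1 (-0.24), and most so for PLK1 (-0.77, SE 0.06), CKS2 (-0.75, SE 0.06) and NDC80 (-0.67, SE 0.06), per the authors' deposited table. Of these 7 genes, MKI67 and NDC80 had their highest normalised reads in the knockout. The 4 higher in wild type were ANLN (0.27), CDCA3 (0.25), DLGAP5 (0.14) and TOP2A (0.10) in the authors' deposited table; ANLN is an actin-binding scaffold of the cleavage furrow.

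The rescue effects of the 2 experiments were tested against each other, in a comparison added after both were seen. The second experiment's WT rescue effect (over knockout) minus the first's was negative and called for 35 of the 42 genes and positive and called for 0, where 17% of all genes were lower and 20.3% higher. The median difference was -0.55 against 0.03 for all genes. KIF20A differed by -1.71 (adjusted p = 8.13e-43, SE 0.12), CDC25C by -1.55 (SE 0.25) and DLGAP5 by -1.53 (SE 0.12). KIF20A had 5230 and 4887 normalised reads in the first experiment's knockout and 5861 and 6487 in its rescue, the reverse order of its values in the second. The 7 genes not called were MAD2L1, CKS2, NUSAP1, TPX2, PTTG1, PRC1 and BUB3. Beside this, the rescue raised G3BP1 by 7.31 in the second experiment, and in the first the knockout was 0.69 below its rescue, per the authors' deposited tables. The part of that level in the difference was not tested, and experiment and transgene dose cannot be told apart.

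**Figure D3:**
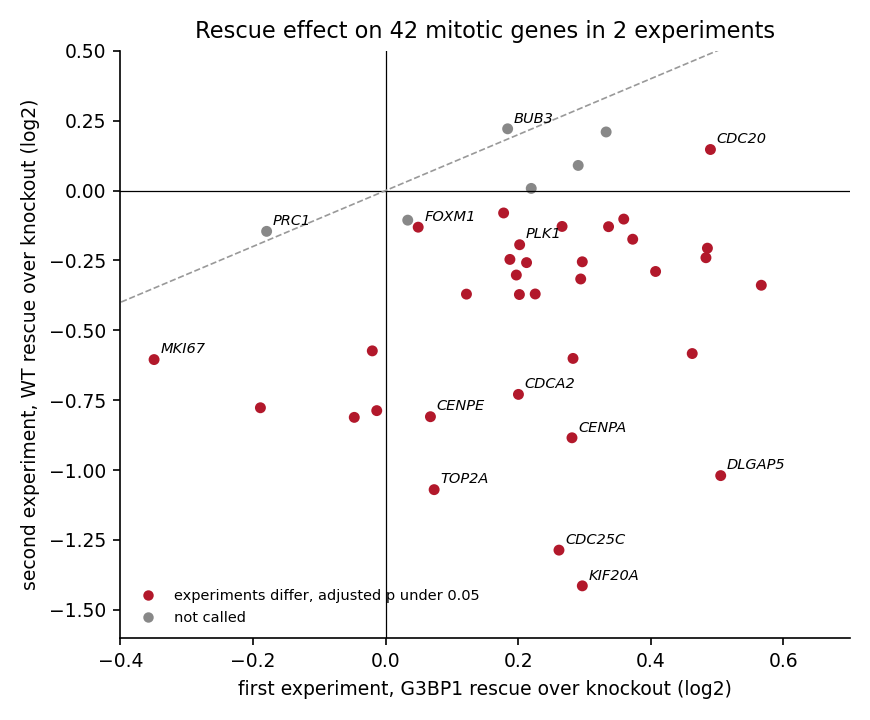
Each point is 1 of the 42 mitotic genes, with its log2 fold change of rescue over knockout in the first experiment (x axis) and the second (y axis); red points differed between experiments at an adjusted p under 0.05, and the dashed line marks equal values. UBE2C (-1.35 for knockout over rescue in the first experiment) and NUSAP1 lie outside the range of the x axis and are not drawn. Most points lie right of 0 and below 0, with KIF20A, CDC25C and DLGAP5 lowest among those right of 0.2.

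CDKN1A, which encodes the cell cycle inhibitor p21, was lower in the knockout than both in wild type (-0.67) and in the first rescue (-0.57), and higher than in the knockout in both second-experiment rescues (0.48 and 0.51), per the authors' deposited tables. It was thus higher with G3BP1 than in the knockout in both experiments. Arsenite went with higher CDKN1A in the knockout (0.53), the WT rescue (0.23) and the NTF2-deletion rescue (0.24), per the authors' deposited tables. The treated WT and NTF2-deletion rescues were at 0.77 and 0.78 against untreated knockout. CDKN1A was not called between wild type and the first rescue (0.09) and was enriched in the RIP-seq (0.64), per the authors' deposited tables. Its part in the results on the mitotic genes was not tested.

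Under arsenite for 2 h the mitotic genes as a set moved little, with calls in both directions. In knockout cells 8 of the 42 rose and 5 fell, where 8.56% of all tested genes rose and 10.9% fell, with a median of 0.03, per the authors' deposited table. The falls were thus about as frequent as among all tested genes. CKS2 rose most, from 772 and 931 normalised reads to 1603 and 1561, with a log2 fold change of 0.88 (adjusted p = 7.86e-15, SE 0.11) in the authors' deposited table. KIF23, the central spindle kinesin, went from 2836 and 2958 to 4193 and 4461, a log2 fold change of 0.59 (adjusted p = 2.16e-14, SE 0.07) in the authors' deposited table. In both genes the treated and untreated libraries were well apart. CENPE had 2150 and 2081 normalised reads untreated and 2808 and 3108 treated, at 0.49 (SE 0.08) in the authors' deposited table.

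The falls were smaller. MAD2L1, a checkpoint protein that holds back CDC20, had 971 and 974 normalised reads untreated and 754 and 708 treated, a log2 fold change of -0.39 (adjusted p = 0.00469, SE 0.11) in the authors' deposited table. HMMR, a spindle and hyaluronan-binding protein, had 941 and 987 against 682 and 770. It fell by 0.38 on the log2 scale, and CDC20 and CDC25B by 0.24 each, per the authors' deposited table. Every treated library of these 4 genes was below the untreated ones. CDK1 (0.22) and MKI67 (0.20) rose, and CCNB1 (0.02), PLK1 (-0.04), TOP2A (0.11) and FOXM1 (-0.16) did not pass the test in the authors' deposited table. By limma on the recovered reads 23 of the 42 were called, 13 higher and 10 lower, with no share of all genes called by limma to set beside them.

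Cells with a rescue transgene were treated in the same way. In the WT rescue 4 of 41 tested genes rose and 4 fell (backgrounds 8.18% and 12.2%), and in the NTF2-deletion rescue 1 of 40 rose and 0 fell (2.43% and 6.14%), per the authors' deposited tables. These counts were near or below the shares of all tested genes. CKS2 was called in each, from 863 and 923 normalised reads to 1187 and 1154 with wild-type G3BP1 and from 1000 and 1018 to 1300 and 1294 with the mutant, at 0.36 (SE 0.07) and 0.33 (SE 0.08) in the authors' deposited tables. In the WT rescue CENPE (0.24), KIF20B (0.17) and BIRC5 (0.16) rose as well, and HMMR (-0.23), ANLN (-0.22), CCNA2 (-0.19) and the spindle assembly factor TPX2 (-0.16) fell, per the authors' deposited table. CCNB1, CDK1, PLK1, TOP2A, MKI67 and FOXM1 lay between -0.11 and 0.03 with wild-type G3BP1 and between -0.06 and 0.03 with the mutant, and were not called in the authors' deposited tables.

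The arsenite responses themselves were tested against each other. In the WT rescue 4 genes responded less than in the knockout and 0 more (2.68% and 1.82% of all genes), namely KIF23 (-0.55, adjusted p = 3.20e-08, SE 0.09), CKS2 (-0.52, SE 0.13), CENPF (-0.28, SE 0.07) and MKI67 (-0.26, SE 0.07). KIF23 had 2252 and 2331 normalised reads in the untreated WT rescue and 2443 and 2297 in the treated one, so its groups overlapped there. In the NTF2-deletion rescue 5 responded less and 0 more (3.08% and 4.04%), namely CKS2 (-0.55, SE 0.13), KIF23 (-0.53, SE 0.10), CENPE (-0.37, adjusted p = 0.026, SE 0.12), CENPF (-0.27, SE 0.08) and MKI67 (-0.21, SE 0.07). Both tests share the knockout libraries. Between the rescues 0 of the 42 differed (0.227% of all genes lower and 0.101% higher), with 1 at an unadjusted p under 0.05 and 0 by limma.

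**Figure D4:**
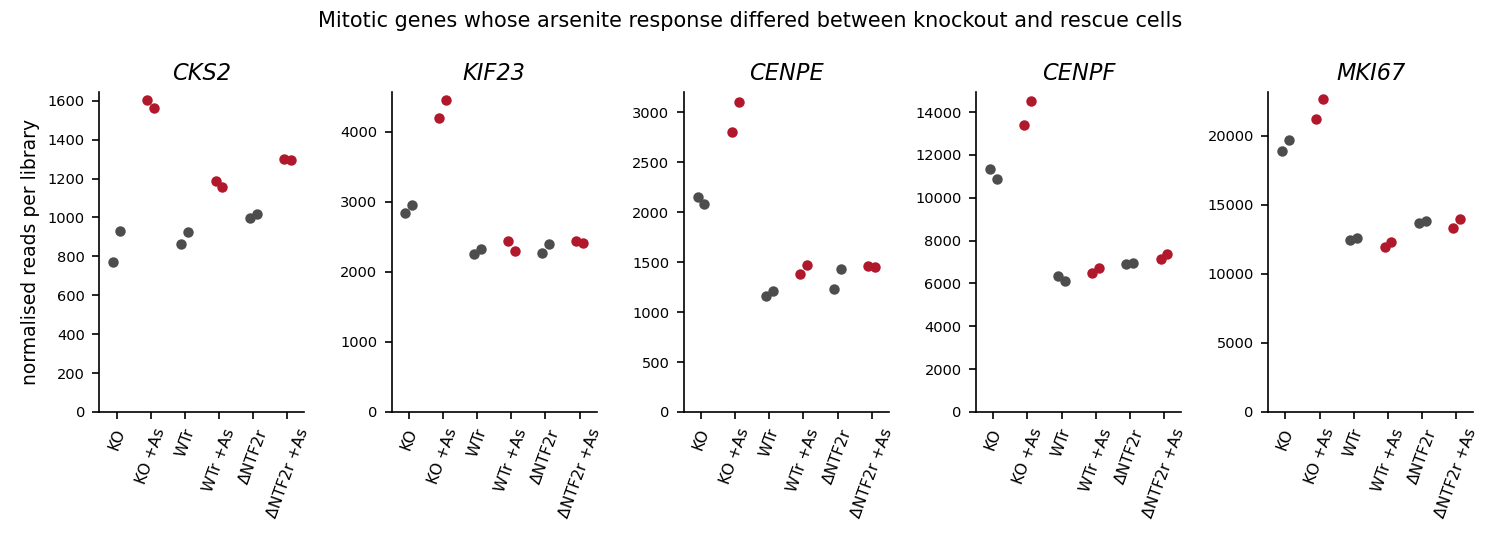
Normalised reads per library in the second experiment for the 5 genes whose arsenite response differed between knockout and a rescue (KO knockout, WTr WT rescue, ΔNTF2r NTF2-deletion rescue, As arsenite; treated libraries in red). In each panel the treated knockout is the highest group, and for KIF23 the rescue libraries stay between 2252 and 2446.

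The lower values in the second experiment's rescues were also present under arsenite. Arsenite-treated WT rescue against arsenite-treated knockout had 22 of the 42 lower and 2 higher (19.3% and 26.1% of all genes), with a median of -0.34. The NTF2-deletion rescue had 18 lower and 3 higher (19.2% and 24.3%), with a median of -0.24. CDC25C (-1.40, SE 0.26, and -1.47, SE 0.27) and KIF20A (-1.27, SE 0.13, and -1.19, SE 0.14) were the lowest genes with a base mean over 100 in each. CDC20 (0.40 and 0.47) and BUB3 (0.39 and 0.40) were higher in both, and MAD2L1 (0.43) in the mutant alone. For CDC20 the treated libraries had 2241 and 2058 normalised reads in the knockout, 2724 and 2759 in the WT rescue and 2951 and 2915 in the NTF2-deletion rescue, with the knockout lowest. The deposited comparisons of treated rescues with untreated knockout, which mix both factors, had 25 lower and 3 higher (19.8% and 25.1%) and 18 lower and 3 higher (19.6% and 23.3%), per the authors' deposited tables. The 3 higher were CKS2 (0.52 and 0.64), BUB3 (0.30 and 0.31) and CDC20 (0.15 and 0.22) in the authors' deposited tables; relative to the median of genes whose base mean was 100 or more, CDC20 in the treated WT rescue was at -0.074.

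In the RIP-seq the 42 genes divided in part by the role given to them here. The authors' deposited table had 23 enriched in the IP and 15 depleted, where 24.7% of all tested genes were enriched and 31.4% depleted, and a median log2 fold change of 0.62 against -0.26 for all tested genes. Relative to the median of genes whose base mean was 100 or more, which sat at 0.12, it was 0.50 in the authors' deposited table. Among kinases, cyclins and their activators, with FOXM1 and CKS2 counted among them, 9 of 10 were enriched (median 1.19), all but FOXM1. All 4 genes of the anaphase-promoting complex and its substrates were enriched too (median 1.31). All 5 kinesins (median -1.03), all 3 chromosome proteins (median -1.63) and both cytokinesis genes were depleted, per the authors' deposited table. Other roles were mixed, with 3 enriched and 1 depleted of 5 checkpoint genes, 3 and 2 of 5 kinetochore genes, and 2 and 2 of 5 spindle proteins. Values per library were not recovered for the RIP-seq.

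CENPA was the most enriched at 1.97 (adjusted p = 3.14e-36, SE 0.15), followed by MAD2L1 at 1.71 (adjusted p = 3.52e-55, SE 0.11) and CCNB2, the second B-type cyclin, at 1.71 (adjusted p = 2.45e-36, SE 0.13), in the authors' deposited table. CCNB1 was at 1.64 (SE 0.18), CDK1 at 1.34 (SE 0.09) and PLK1 at 1.28 (SE 0.14) in the authors' deposited table. MKI67 was the most depleted at -3.86 (adjusted p = 3.60e-284, SE 0.11), then CENPF at -2.93 (adjusted p = 2.49e-83, SE 0.15) and TOP2A at -1.63 (SE 0.17), leaving aside NUSAP1 and PRC1 with base means of 7.95 and 20.8, in the authors' deposited table. FOXM1 (-0.18, SE 0.09), BUB1B (-0.22), CDCA8 (-0.16) and TPX2 (0.08) did not pass the test in the authors' deposited table. Within single machines the values split: the kinetochore held CENPA, NDC80 (1.48) and NUF2 (0.95) beside CENPF and CENPE (-1.61), and the checkpoint held MAD2L1 and BUB3 (1.42) beside BUB1 (-0.48), per the authors' deposited table.

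Gene length went with this split. Over the 42 genes the log2 enrichment and the RefSeq gene length, introns included, had a Spearman's rho of -0.62, beside -0.25 over 16706 tested genes with a length, both as descriptions. The 21 shorter members (4.22 to 27.9 kb) had a median of 1.25 and the 21 longer (28.5 to 92.5 kb) a median of -0.91. The part of length in the enrichment was not tested. Enrichment and the fold change of the WT rescue in U2OS had a Spearman's rho of 0.30 over the 42 genes, from different cell lines and libraries.

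**Figure D5:**
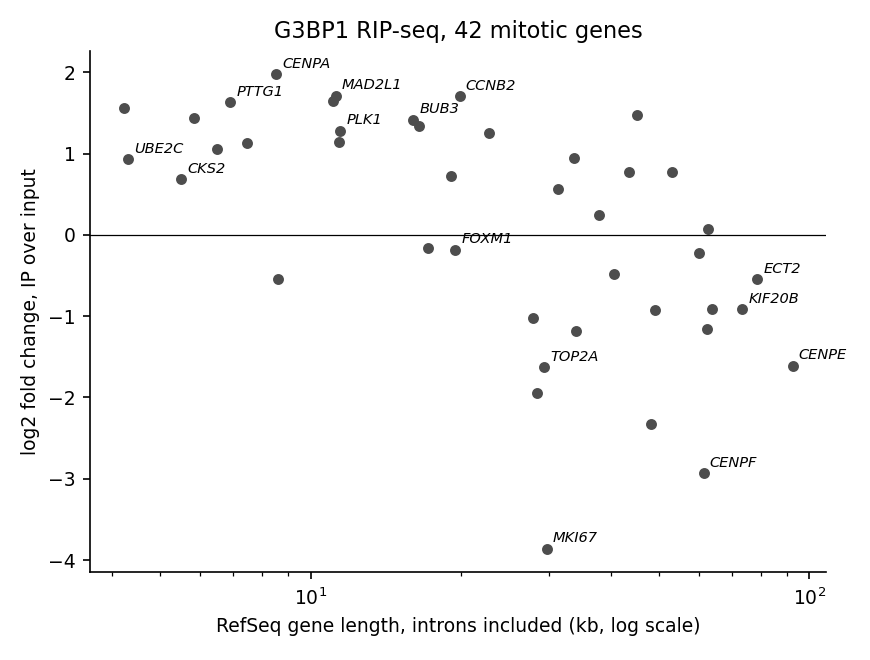
Log2 fold change of IP over input (y axis) against RefSeq gene length in kb on a log scale (x axis) for the 42 mitotic genes, one point per gene. Genes under about 8 kb all lie above 0, and MKI67 and CENPF are the lowest points at -3.86 and -2.93.

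Other cell cycle lists in the same tables set these values in context. Of 50 further G2/M genes, 35 fell and 2 rose in the WT rescue of the second experiment (median -0.42), led by the kinetochore genes CENPI (-1.13) and SPC24 (-1.07), and 20 were lower and 3 higher in the first experiment's knockout than in its rescue (median -0.08), per the authors' deposited tables. Of 24 G1/S genes 15 rose and 1 fell in the WT rescue (median 0.38), with CDC25A at 1.55 and SLBP, a histone mRNA-binding protein, at 0.83, and 19 rose and 0 fell in the NTF2-deletion rescue, per the authors' deposited tables. In the knockout under arsenite the G1/S genes had 1 higher and 7 lower, per the authors' deposited table. Of 12 DREAM and MuvB-B-MYB complex subunits, 2 rose and 2 fell in the WT rescue, with the repressor E2F4 at 0.81 and the pocket protein RBL2 at -0.80 in the authors' deposited table. The 18 inhibitors and G0/G1 genes had 8 higher and 9 lower there, from the damage-inducible GADD45A at 2.74 to CCNG2 at -2.44, per the authors' deposited table.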

How the data were processed

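Per the labels' protocols, poly-A RNA from TRIzol extracts went into directional libraries. The authors used STAR 2.7.0f and DESeq2 2.11.40.6, per the submitters' processing notes; the annotation, the build and whether counting used strand are not given in the sources used here. Reads of members that overlap another gene or have named pseudogenes are uncertain. Overlaps include KIF20A with CDC23, PRC1 with PRC1-AS1, HMMR with HMMR-AS1, KIF23 with KIF23-AS1 and CDC25C with FAM53C. They also include PLK1 with ERN2, FOXM1 with ITFG2 and RHNO1, CCNA2 with EXOSC9, ANLN with MATCAP2, CDCA3 with GNB3 and BUB1B with BUB1B-PAK6, among others. Members with named pseudogenes are CCNB2, CDC20, AURKA, AURKB, BUB1, BUB3, MAD2L1, MKI67, UBE2C, CDCA3 and DLGAP5.

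The values are the authors' 11 deposited DESeq2 tables. Their base mean, as deposited, is a mean signal of normalised reads over both groups. The deposited fold changes are log2 values, shrunk by the authors with priors that differed in width between tables (0.279 to 1.33), so values of different tables are not on one scale. The deposited Wald statistic is a score, and the deposited p-value is from that test, adjusted by the authors. Calls were made where the adjusted p was under 0.05. The tables' 4 summary lines of read counting were left out.

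Whole reads per library were recovered from the base means and size factors of the RNA-seq tables, for 38450 of 38466 genes with reads in the first experiment (99.958%) and 38908 of 38909 in the second (99.997%); G3BP1 was not recovered in the second. Tested on simulated data, 100% of 3000 per experiment came out exact. Recovered libraries carry no replicate number. Normalised reads are recovered reads over size factors on one scale per experiment.

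Differences between tables were tested by z-test (summed squared standard errors, two-sided) with Benjamini-Hochberg adjustment over genes whose base mean was 10 or more; where tables share knockout libraries the error is too large. On simulated data this recovered 79.0% of 200 genes changed by 1 (log2) among 16210 for the comparison of the rescues with each other and 91.5% among 15648 for the arsenite response of the WT rescue against the knockout. The simulated errors were independent, unlike those of the rescues, which share knockout libraries. The members' differences between the rescues ran only from -0.31 to 0.12, so the 79.0% does not measure the power to call them. The alternative test was limma 3.58.1 (R 4.3.3) on log2(normalised reads + 0.5), for genes with at least 10 normalised reads. It recovered 99.5% of 200 genes changed by 1 (log2) among 16653 on simulated data for the WT rescue against the knockout. Python 3.11.15 with pandas 2.3.3 and scipy 1.17.1 did the rest.

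In each deposited comparison values or their range are given for the 3 highest and 3 lowest called members whose base mean was 100 or more, and for CCNB1, CDK1, PLK1, TOP2A, MKI67 and FOXM1. The comparisons of treated rescues with knockout are the exception and give only some of these. CDKN1A is given in every deposited comparison. Genes of other lists were named from their 2 highest and 2 lowest called, in some comparisons only. Members named beyond this were chosen after their values were seen. The members and lists were chosen with earlier results of these data known.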

Additional observations from a re-analysis of the deposited data

Results flagged for a closer look

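Some results differed between groups of samples by the test of the difference itself. The arsenite response of 4 mitotic genes was lower in the WT rescue than in the knockout: KIF23 by a log2 difference of -0.553, CKS2 by -0.522, CENPF by -0.28 and MKI67 by -0.26. In the NTF2-deletion rescue it was lower for 5 genes, CKS2 at -0.555, KIF23 at -0.53, CENPE at -0.371, CENPF at -0.27 and MKI67 at -0.209. The effect of a rescue over the knockout was lower in the second experiment than in the first for 35 of the 42 genes, with KIF20A at -1.71, CDC25C at -1.55 and DLGAP5 at -1.53.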

How the results depend on the processing

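No paired analysis was possible because the deposited tables and the recovered libraries carry no replicate numbers. The shares of all genes called under the settings below, limma included, are not given here. The counts below therefore show how calls moved with the setting, without a background to read them against. With statistics divided by their spread over all genes, the members called were 13 in the RIP-seq (9 higher and 4 lower), 10 for knockout against wild type (5 and 5), 11 for knockout against rescue (1 and 10), 9 for wild type against rescue (0 and 9), 8 for the WT rescue (0 and 8), 6 for the NTF2-deletion rescue (0 and 6), 4 for arsenite in the knockout (4 and 0), 1 in the WT rescue, and 6 (0 and 6) in each comparison of a treated rescue with untreated knockout. With a fold change of at least 0.5 (log2) added, they were 9, 3, 4, 14, 10, 2, 0, 0, 14 and 11 for knockout against wild type, knockout against rescue, wild type against rescue, WT rescue, NTF2-deletion rescue, arsenite in the knockout, the WT rescue and the NTF2-deletion rescue, and the treated WT and NTF2-deletion rescues. At an adjusted p under 0.01, 8 were called for arsenite in the knockout, 5 in the WT rescue and 3 for the difference of response between NTF2-deletion rescue and knockout.

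By limma 23 were called for arsenite in the knockout (13 higher and 10 lower), 3 between the rescues, 38 and 36 for the treated WT and NTF2-deletion rescues against treated knockout, and 7 (2 and 5) and 8 (2 and 6) for their arsenite responses against the knockout's. Centred on the median of genes whose base mean was 100 or more, 34 fell in the WT rescue, 28 in the NTF2-deletion rescue and 31, with 1 higher, in the treated NTF2-deletion rescue (32 called). FOXM1 in the latter turned to -0.18 and was called, and CDC20 in the treated WT rescue turned to -0.074. With genes whose base mean was 100 or more, the median was -0.23 in the NTF2-deletion rescue and -0.28 and -0.21 in the treated WT and NTF2-deletion rescues. The cause of these changes was not tested.

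Leaving out 1 library at a time (added after the data were seen for limma), the medians ran from -0.11 to -0.035 for knockout against wild type, -0.28 to -0.19 for knockout against rescue, -0.010 to 0.018 for arsenite in the WT rescue, -0.31 to -0.28 for the WT rescue, -0.24 to -0.22 for the NTF2-deletion rescue, and -0.31 to -0.27 and -0.25 to -0.21 for the treated WT and NTF2-deletion rescues against untreated knockout. The limma counts ran from 31 to 33 for the WT rescue, 15 to 20 for arsenite in the knockout, 2 to 3 in the WT rescue, 1 to 2 in the NTF2-deletion rescue, 0 to 1 between the rescues, and 3 to 8 for both differences of arsenite response. Limits: with 2 libraries a group, the median standard error at base means of 100 or more was 0.0861 to 0.138 on the log2 scale in the tables of U2OS cells, and NUSAP1 and PRC1 had few reads.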
